A study of Mus musculus with 54 samples.

Results

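The withdrawal of leukaemia inhibitory factor (LIF) from mouse embryonic stem (ES) cells was followed here from day 2 to day 4. The comparison set 1 library of wild-type CJ7 cells (129S1/SVImJ) after 4 days without LIF against 2 days without LIF, for which the table holds the authors' mean of 1 J1 library (129S4/SvJae) and 1 CJ7 library. These are 3 of the 54 samples of the series, and 3 of the 12 behind the table of LIF withdrawal and lineages. The cells of both groups were ES cells kept in serum-containing ES medium without LIF, and no mutation, Cre or transgene is labelled for either group. Values set beside them are the authors' mean of 3 day 0 libraries (CJ7 and JF4), the authors' mean of 3 day 6 libraries (JF4, J1 and CJ7), and 1 library of mesendoderm (ME). The ME cells were sorted as GFP-positive after 6 days without LIF from a line of 129/Ola origin with GFP in T, the gene for the T-box factor Brachyury, so their T level is part of how they were chosen.

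LIF, acting through its receptor and the transcription factor STAT3, holds mouse ES cells in a naive pluripotent state. Cells that lose this signal first take on features of the epiblast, the layer of the early embryo from which the body forms. The epiblast then makes the primitive streak under Wnt, Nodal, BMP and FGF signals, and cells passing through the streak become mesoderm or definitive endoderm. The T-box factors T and Eomes and the homeobox factor Mixl1 mark cells at that stage.

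Genes were compared by their FPKM, fragments scaled to gene length and to the size of the library, on a log2(FPKM + 1) scale, as day 4 minus day 2. A gene entered when it reached 1 FPKM in at least 2 of the 7 columns of the table, and 12511 of 39067 entries did. A difference of at least 1 log2 unit is called a rise or a fall, which describes its size only, since 1 library stands against a mean with no spread and no test was possible. The scale understates the change of low genes, and on it a gene under 1 FPKM at day 2 cannot fall by 1 log2 unit. The day 4 library is of CJ7 alone and the day 2 mean also holds J1, so a change of time and a difference between lines cannot be told apart from the difference itself.

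That mixture limits the rises less than the falls. Because no level is below 0, and taking the authors' mean as an arithmetic one, the CJ7 library can at most have had 2 times the day 2 mean. A rise of 1 log2 unit therefore always exceeds anything the CJ7 library can have had at day 2. For the 392 rises this follows from the arithmetic and is not a separate finding. The bound takes the listed values as given, also for the 13 rises listed at 0 at day 2. Set against that highest possible CJ7 value, 156 genes were still at least 1 log2 unit higher at day 4, and 56 were at least 2 units higher. No such bound exists for a fall.

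Across the genes that entered, 392 were higher at day 4 (3.13%) and 609 were lower (4.87%). Of the 12111 entries with a gene symbol 2.97% were higher and 4.29% lower, which is the background for the lists of named genes. The other 11510 genes (92.0%) of all that entered lay within 1 log2 unit. The median difference was -0.07 and the quartiles were -0.36 and 0.22. Of the rises 87 were of at least 2 log2 units, as were 93 of the falls. Among the 4538 genes of at least 10 FPKM in both columns, 65 were higher and 94 were lower. The day 4 library held about 36.5 M reads, as estimated from the steps between its low values on 24 entries, and the authors' means give no depth. Exact zeros occur at day 4 in 63 of the falls and at day 2 in 13 of the rises. Genes that every cell uses are among the entries at 0, such as Zmynd8 (0 FPKM at day 4, against 75.3 FPKM at day 2) and Nolc1 (168 FPKM at day 4, against 0 FPKM at day 2), so such genes are only called listed at 0.

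**Figure D1:**
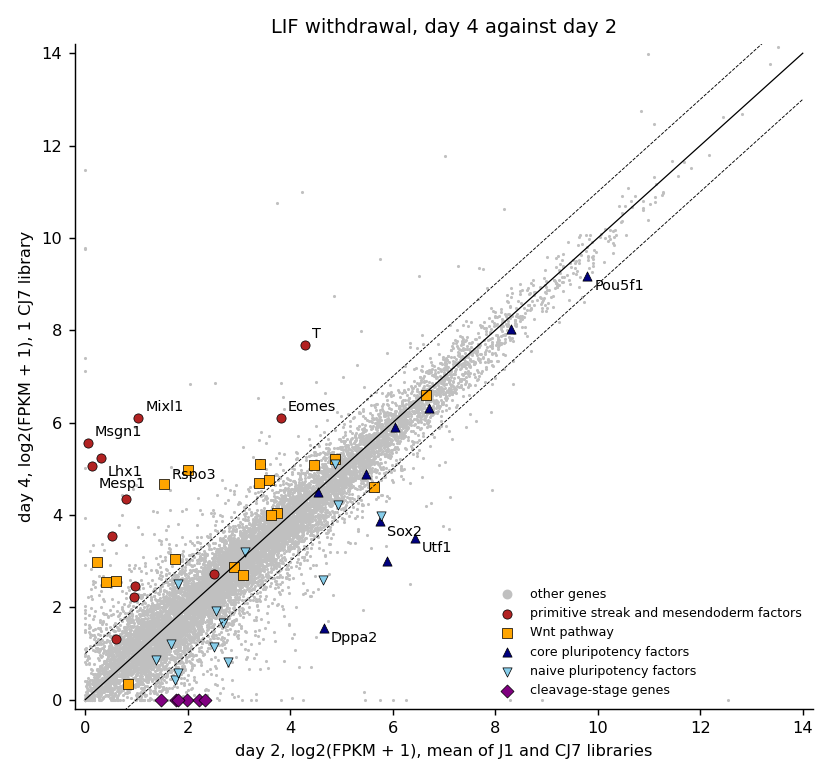
Each point is a gene, with its day 4 level of 1 CJ7 library on the vertical axis and its day 2 level, the mean of a J1 and a CJ7 library, on the horizontal axis, both as log2(FPKM + 1). The solid line marks equal levels and the dashed lines a difference of 1 log2 unit, and 11 streak factors lie above the upper line while Dppa2, Utf1 and Sox2 lie below the lower one.

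The streak markers rose together. In such bulk samples a change in the number of cells of a type and a change in RNA per cell cannot be told apart. T was at 1.40, 18.4, 204 and 56.1 FPKM at days 0, 2, 4 and 6, and at 192 FPKM in sorted ME (chr17:8627288-8635361, mm9). Its level at day 4 was the highest of the 4 times, and the day 4 minus day 2 difference was 3.40 log2 units. Mixl1 was at 0.133, 1.04, 67.1 and 22.7 FPKM at the same times and at 115 FPKM in ME (chr1:182623179-182627165), a difference of 5.06. Eomes was at 2.99, 13.0, 67.6 and 29.7 FPKM, and at 90.8 FPKM in ME (chr9:118387307-118395250), a difference of 2.29. In a ranking of the 12111 entered genes with a symbol by level, T stood at place 341 at day 4, against 3371 at day 2. Mixl1 stood at place 1089 at day 4, against 10824 at day 2, and Eomes at 1078, against 4273. All 3 markers were thus well expressed at day 4.

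Of 15 primitive streak and mesendoderm factors 13 entered, 11 rose and none fell, with a median difference of 3.03 beside -0.07 over all genes. Their summed level over all 15 was 534 FPKM at day 4, against 50.8 FPKM at day 2, with 11.5 FPKM at day 0 and 183 FPKM at day 6. Of the 13, Msgn1, Mesp1, Lhx1, Evx1, Mesp2, Gsc, Foxa2 and Snai1 were under 1 FPKM at day 2. A fall could therefore not be called for these genes. Among the factors of mesoderm, Msgn1, a factor of presomitic mesoderm, was at 46.0 FPKM at day 4, against 0.0311 FPKM at day 2 (difference 5.51). Mesp1, which marks the first cardiac and cranial mesoderm, was at 32.4 FPKM at day 4, against 0.0885 FPKM at day 2 (4.94). Both were thus very low at day 2.

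Factors of the anterior streak and the organizer rose as well. Lhx1, a LIM-homeobox factor needed for head formation, was at 36.4 FPKM at day 4, against 0.231 FPKM at day 2 (4.92). Gsc, the organizer homeobox factor goosecoid, was at 19.3 FPKM at day 4, against 0.734 FPKM at day 2 (3.55). Foxa2, which marks definitive endoderm and the notochord lineage, was low at 3.68 FPKM at day 4, against 0.925 FPKM at day 2 (1.28). Sox17, an endoderm factor, did not enter, with 1.24 FPKM at day 4, against 0.0673 FPKM at day 2. The posterior streak factor Evx1 was at 10.7 FPKM at day 4, against 0.440 FPKM at day 2 (3.03). Sp5, a Wnt target, rose by 1.69 log2 units and Snai1, a repressor of E-cadherin, by 1.49. Mesp2 and Hhex stayed within 1 log2 unit, at 0.72 and 0.21, and Tbx6 did not enter (0.631 FPKM at day 4, against 0.0198 FPKM at day 2).

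The bound on the CJ7 cells can be read gene by gene. For T the CJ7 library can have had at most 36.9 FPKM at day 2, so that the CJ7 difference is at least 2.44 log2 units. For Mixl1 the least difference is 4.47, for Eomes 1.34, for Msgn1 5.47 and for Mesp1 4.83. For Sp5, Snai1 and Foxa2 it lies under 1, at 0.76, 0.91 and 0.72. Hhex may have been higher or lower, since its bound is -0.66.

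**Figure D2:**
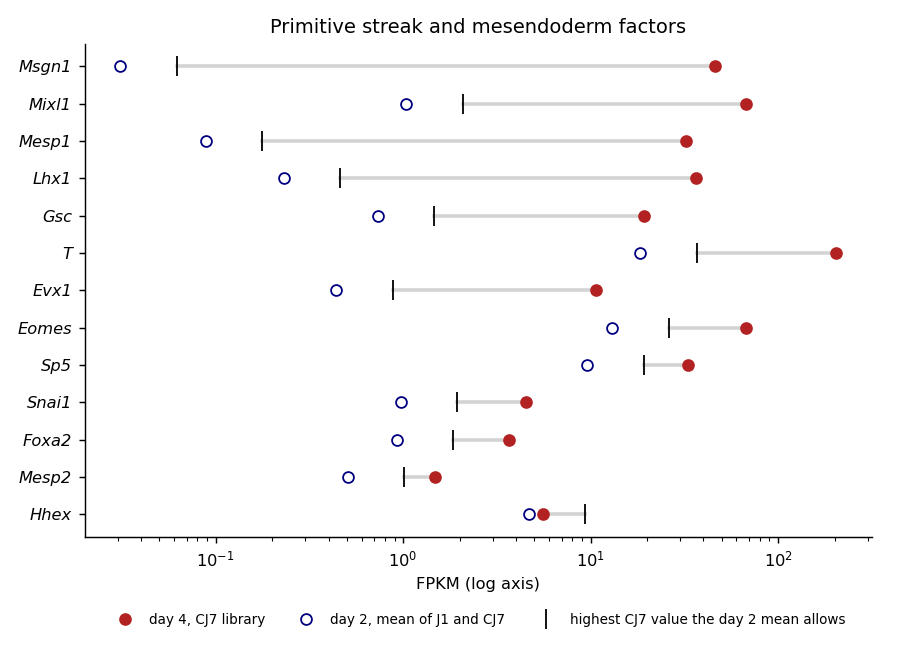
FPKM on a log axis of the 13 streak and mesendoderm factors that entered, with the day 4 CJ7 library as filled points, the day 2 mean as open points and the highest CJ7 value that the mean allows as ticks. In 12 genes the day 4 point lies right of the tick, from Mesp2 at the low end to Msgn1, and in Hhex it lies left of it.

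Promoters of streak factors are shown because these genes moved together, and because T-box proteins and the Wnt effectors TCF and LEF are known to bind near such genes. The sequences are of 300 bases around the annotated start, from 250 before to 50 after it, from RefSeq on GRCm38.p6, a later build than the mm9 of the table. Capitals mark the T-box core ACACCT and the TCF/LEF core CTTTGA, searched on both strands, so that they also appear as AGGTGT and TCAAAG. In these promoters no match overlaps another. The windows are chr17:8434173-8434472 (plus strand) for T, chr12:11208899-11209198 (minus strand) for Msgn1, chr7:79793541-79793840 (minus strand) for Mesp1 and chr9:118477939-118478238 (plus strand) for Eomes.
T: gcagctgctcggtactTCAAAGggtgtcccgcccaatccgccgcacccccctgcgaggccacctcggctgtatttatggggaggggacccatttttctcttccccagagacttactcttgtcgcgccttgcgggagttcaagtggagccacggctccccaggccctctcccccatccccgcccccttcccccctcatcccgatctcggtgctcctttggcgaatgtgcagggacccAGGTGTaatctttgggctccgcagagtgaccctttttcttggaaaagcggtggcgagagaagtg
Msgn1: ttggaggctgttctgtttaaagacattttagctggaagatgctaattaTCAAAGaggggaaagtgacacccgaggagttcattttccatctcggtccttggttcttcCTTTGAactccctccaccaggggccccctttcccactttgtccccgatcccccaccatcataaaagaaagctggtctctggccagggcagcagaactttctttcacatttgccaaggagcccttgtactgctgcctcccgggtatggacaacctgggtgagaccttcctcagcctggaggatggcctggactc
Mesp1: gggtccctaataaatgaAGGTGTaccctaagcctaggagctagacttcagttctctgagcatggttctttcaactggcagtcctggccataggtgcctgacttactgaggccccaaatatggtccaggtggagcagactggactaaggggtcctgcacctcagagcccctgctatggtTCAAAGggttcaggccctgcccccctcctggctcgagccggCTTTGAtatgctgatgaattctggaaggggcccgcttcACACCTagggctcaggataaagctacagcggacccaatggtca
Eomes: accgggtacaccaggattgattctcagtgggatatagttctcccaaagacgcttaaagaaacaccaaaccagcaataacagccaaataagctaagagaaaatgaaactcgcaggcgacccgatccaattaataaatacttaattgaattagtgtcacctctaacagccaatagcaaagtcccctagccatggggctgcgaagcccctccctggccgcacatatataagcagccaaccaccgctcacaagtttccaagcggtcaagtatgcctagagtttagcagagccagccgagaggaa

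T held 1 T-box and 1 TCF/LEF core, Msgn1 held 2 TCF/LEF cores, Mesp1 held 2 of each, and Eomes held neither. Of the 11 streak factors that rose 10 had promoters in the RefSeq table, 12 in number. CTTTGA stood in 5 of the 12 (41.7%), those of Foxa2, Mesp1, Msgn1, Sp5 and T, and in 16.0% of all 32851 promoters of the same length. ACACCT stood in 3 (25%), of Evx1, Mesp1 and T, and in 13.7% of all promoters. TGTNNATT, a core of the Nodal effector FOXH1, stood in 0 of 12, and in 12.2% of all promoters. A match of a few letters describes the sequence and is not a binding site.

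Wnt pathway genes rose more often than they fell. Of 21 members 18 entered, 9 rose and 1 fell, with a median of 0.89. Among the ligands and their helpers, Wnt3, whose product is needed to form the streak, was at 1.17, 9.48, 24.7 and 19.2 FPKM at days 0, 2, 4 and 6 (difference 1.30). Wnt5b was at 30.4 FPKM at day 4, against 3.03 FPKM at day 2 (2.96), and Wnt5a at 4.94 FPKM, against 0.516 FPKM (1.97). Rspo3, a secreted protein that strengthens Wnt signalling, was at 24.4 FPKM at day 4, against 1.90 FPKM at day 2 (3.13). Sorted ME had 37.2 FPKM of Rspo3 and 26.5 FPKM of Wnt5b.

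Among the Wnt inhibitors and feedback targets, 4 rose. Frzb rose by 2.75 log2 units, and Dkk1, at 4.84 FPKM at day 4, against 0.317 FPKM at day 2, by 2.15. The feedback target Axin2 was at 25.9 FPKM at day 4, against 11.0 FPKM at day 2 (1.16), and Nkd1 at 7.24 FPKM, against 2.36 FPKM (1.29). The inhibitor genes Notum and Sfrp1 differed by -0.50 and -0.38, and Sfrp5 did not enter. The repressor Tcf7l1 fell, at 23.4 FPKM at day 4, against 48.6 FPKM at day 2 (-1.02). Wnt8a was high at both times (15.5 FPKM at day 4, against 12.3 FPKM at day 2), and Ctnnb1, which encodes beta-catenin, differed by -0.05. For Axin2 and Wnt3 the least CJ7 difference was 0.22 and 0.37, so their rise was the least secured of the group against a difference between lines. Of the 9 Wnt genes that rose 7 had promoters in the RefSeq table, 9 in number. CTTTGA stood in 4 of these 9 (44.4%), those of Dkk1, Frzb, Sp5 and Wnt5b, beside 16.0% of all promoters. ACACCT stood in 3 (33.3%), beside 13.7%, and TGTNNATT in 0, beside 12.2%.

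**Figure D3:**
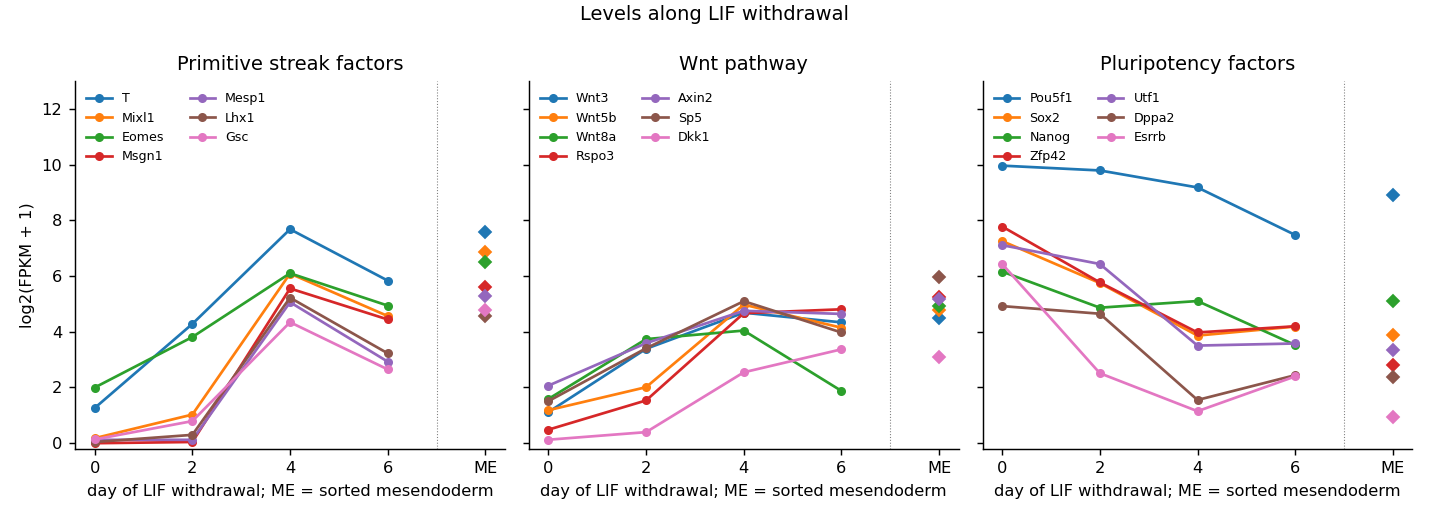
Levels as log2(FPKM + 1) of 7 streak factors, 7 Wnt pathway genes and 7 pluripotency factors at days 0, 2, 4 and 6 of LIF withdrawal, joined by lines, with sorted ME as diamonds. Day 4 is 1 CJ7 library and the other days are the authors' means over differing lines, and each of the 7 streak factors has its highest of the 4 levels at day 4.

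Ligands of the FGF family split. Fgf8, which cells need to leave the streak, was at 51.7 FPKM at day 4, against 10.9 FPKM at day 2 (2.14), after 1.17 FPKM at day 0, and Fgf3 rose to 4.90 FPKM at day 4, against 0.430 FPKM at day 2 (2.05). Fgf4, the autocrine FGF of ES cells, fell to 2.12 FPKM at day 4, against 14.6 FPKM at day 2 (-2.32), and Fgf15 fell by 1.34 log2 units. Receptors and feedback genes such as Fgfr1, Dusp6 and Spry4 stayed within 1 log2 unit. In all, 17 of 18 FGF pathway members entered, 2 rose and 2 fell, with a median of 0.08.

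The Nodal pathway gave a similar division among its inhibitors. Of 16 members 15 entered, 1 rose and 3 fell, with a median of 0.12. Nodal itself was at 12.2 FPKM at day 4, against 16.8 FPKM at day 2, and its co-receptor gene Tdgf1 at 196 FPKM, against 144 FPKM, both within 1 log2 unit. Lefty2 lay at the threshold, at 26.8 FPKM at day 4, against 12.9 FPKM at day 2 (1.00), while Lefty1 fell to 7.80 FPKM, against 24.7 FPKM (-1.55). The ligand gene Gdf3 fell by 2.03 and Smad7, an inhibitory Smad, by 1.43. Cer1, a secreted inhibitor made in anterior endoderm, did not enter the filter, at 5.90 FPKM at day 4, against 0.0522 FPKM at day 2.

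In the BMP pathway 16 of 17 members entered, 3 rose and none fell, with a median of 0.49. Bmp2 was at 3.79 FPKM at day 4, against 0.204 FPKM at day 2 (1.99), and its antagonist gene Nog at 2.13 FPKM, against 0.321 FPKM (1.25). Msx1, a homeobox target of BMP, was at 16.1 FPKM at day 4, against 1.51 FPKM at day 2 (2.77). Bmp4 reached 11.8 FPKM at day 4, against 7.38 FPKM at day 2 (0.61), and 97.4 FPKM at day 6. The targets Id1, Id2 and Id3 differed by -0.69, -0.82 and -0.04. Most of the pathway therefore stayed within 1 log2 unit.

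Genes of the change from epithelial to mesenchymal cells were all measured, and 6 of 14 rose and 1 fell, with a median of 0.49. Fn1, which encodes fibronectin, was at 580 FPKM at day 4, against 90.1 FPKM at day 2 (2.67). Vim, the gene of the mesenchymal filament vimentin, was at 654 FPKM at day 4, against 203 FPKM at day 2 (1.68). Among the cadherins, Cdh2 was at 37.2 FPKM at day 4, against 8.66 FPKM at day 2 (1.98), and Cdh11 at 20.5 FPKM, against 0.652 FPKM (3.70). Cdh1, the epithelial cadherin, was at 161 FPKM at day 4, against 266 FPKM at day 2, a difference of -0.72 that was not called. Cldn6, a tight junction gene, fell by 1.04, and Epcam differed by -0.49. Both kinds of cadherin were thus present at day 4.

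Of 24 genes of mesoderm derivatives 15 entered, 4 rose and 1 fell, with a median of 0.31. Pdgfra, a receptor gene of paraxial mesoderm, was at 9.40 FPKM at day 4, against 0.250 FPKM at day 2 (3.06). Kdr, the VEGF receptor gene of blood and vessel progenitors, was at 7.97 FPKM at day 4, against 0.517 FPKM at day 2 (2.56). The cardiac progenitor factors Isl1 and Hand2 rose by 1.49 and 1.33. Hand1 was at 5.68 FPKM at day 4, against 2.54 FPKM at day 2 (0.92), and at 268 FPKM at day 6. The factors of blood Tal1 and Gata1 and the cardiac factor Nkx2-5 did not enter. Tek, a vessel receptor gene, fell by 1.31.

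Of 42 Hox and Cdx genes 14 entered, and Hoxb1 was the only one that rose, at 2.37 FPKM at day 4, against 0.105 FPKM at day 2 (1.61). The summed level of all 42 was 13.7 FPKM at day 4, against 10.7 FPKM at day 2, and 58.6 FPKM at day 6. Cdx4 was at 1.96 FPKM at day 4, against 0.527 FPKM at day 2 (0.95). Next to the HOXA cluster lies Haunt (Gm15055), the long RNA that the series studies, which fell to 0.175 FPKM at day 4, against 4.13 FPKM at day 2 (-2.12), after 53.7 FPKM at day 0. Gm15051, also known as Hotairm1, fell to 2.91 FPKM at day 4, against 13.5 FPKM at day 2 (-1.89), and was at 11.3 FPKM at day 6.

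**Figure D4:**
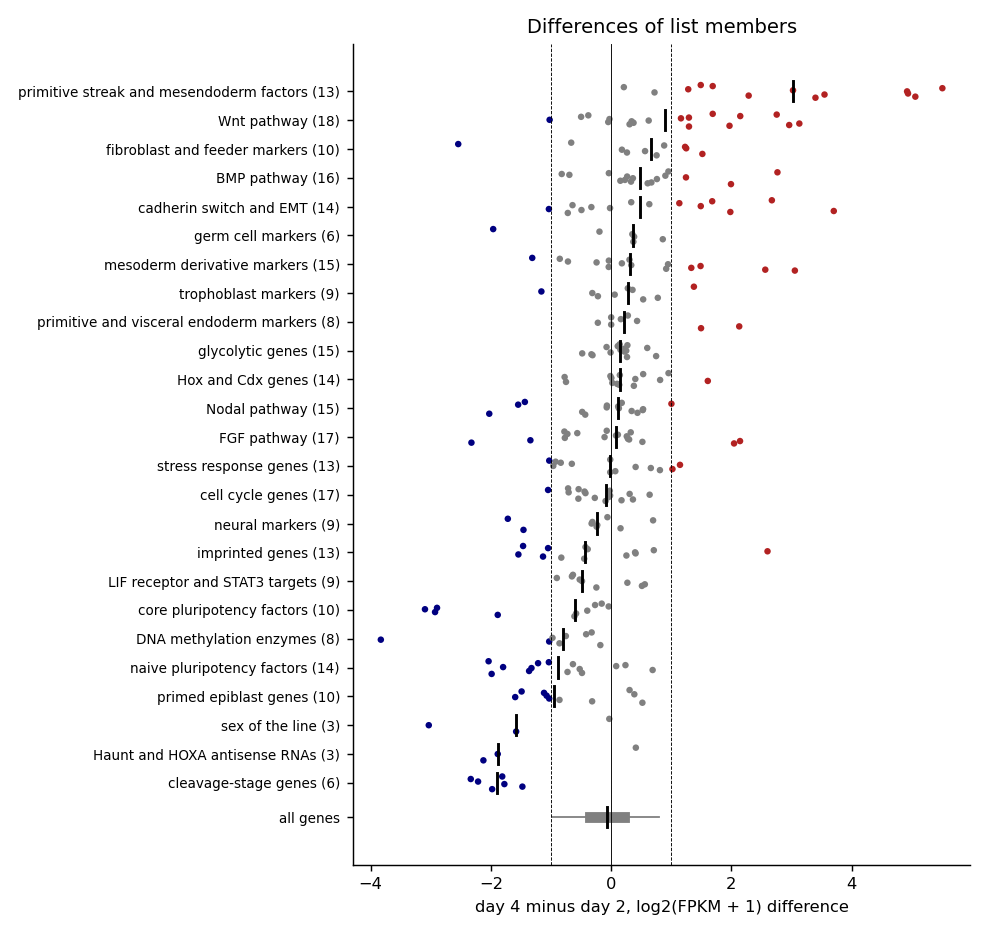
Day 4 minus day 2 difference in log2(FPKM + 1) of the entered members of 25 gene lists, 1 point a gene, red for a rise and blue for a fall of at least 1 log2 unit, with black bars at the list medians and the number of entered genes in brackets. The bottom row gives all 12511 genes (box from the first to the last quartile, line from the 5th to the 95th percentile), and the streak list has the highest median at 3.03.

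Naive pluripotency genes went on falling. Of 16 members 14 entered, 7 fell and none rose, with a median of -0.88. Their summed level was 1002, 176, 93.6 and 133 FPKM at days 0, 2, 4 and 6, already far below day 0 at day 2. Zfp42, the ES cell marker also called Rex1, was at 14.7 FPKM at day 4, against 53.6 FPKM at day 2 (-1.80). Klf2 fell by 1.99, Tdh, a threonine dehydrogenase gene of ES cells, by 2.04, and Esrrb by 1.36, with Nr0b1, Nr5a2 and Fbxo15 also called. Nanog was not among them, at 70.5, 28.1, 33.4 and 10.5 FPKM at days 0, 2, 4 and 6 and at 33.6 FPKM in ME. Tbx3 differed by 0.69 and Dppa3 by 0.08.

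Among the 10 core factors of pluripotent cells, shared by naive and primed states, 4 fell and none rose, with a median of -0.60. Sox2 was at 13.6 FPKM at day 4, against 52.8 FPKM at day 2 (-1.89). Dppa2 and its partner Dppa4 fell by 3.10 and 2.90, Dppa2 to 1.93 FPKM at day 4, against 24.1 FPKM at day 2. Utf1 was at 10.3 FPKM at day 4, against 85.4 FPKM at day 2 (-2.93). Pou5f1, which encodes OCT4, stayed high at 579 FPKM at day 4, against 885 FPKM at day 2 (-0.61), and was at 177 FPKM at day 6. The day 4 library thus held much OCT4 RNA beside low Sox2, as did ME with 486 FPKM of Pou5f1 and 13.8 FPKM of Sox2.

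The genes of the primed epiblast, which ES cells express as they leave the naive state, divided. Of 10 genes 5 fell and none rose, with a median of -0.94. Pou3f1 was at 6.54 FPKM at day 4, against 21.8 FPKM at day 2 (-1.60), Sall2 fell by 1.49, Sox3 by 1.12, Foxd3 by 1.07 and Dnmt3b by 1.03. Fgf5, the classic epiblast marker, was at 28.4 FPKM at day 4, against 19.5 FPKM at day 2 (0.52), and Otx2 at 12.3 FPKM, against 15.6 FPKM (-0.32). Of the genes of DNA methylation all 8 had negative differences, and 2 were called. Dnmt3l, the cofactor of the de novo methyltransferases, fell to 4.65 FPKM at day 4, against 79.4 FPKM at day 2 (-3.83), and Dnmt3b was at 125 FPKM, against 256 FPKM.

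None of the 9 genes of the LIF receptor and STAT3 targets was called, with a median of -0.48, and none of 15 glycolytic genes, with a median of 0.16. Of 17 cell cycle genes only Cdkn1c was called, a fall of 1.05, and Mki67 was at 93.9 FPKM at day 4, against 95.0 FPKM at day 2. Of 13 stress response genes that entered Fos and Atf4 rose and Mdm2 fell, with a median of -0.01. Of 13 imprinted genes 1 rose and 4 fell, with a median of -0.43. Peg3 rose to 252 FPKM at day 4, against 40.7 FPKM at day 2 (2.60), while Igf2, Grb10, Mirg and Cdkn1c fell. Igf2 was at 6.16 FPKM at day 4, against 19.8 FPKM at day 2 (-1.54), and at 358 FPKM at day 6.

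Markers of other cells that such a culture could hold gave mixed values. In the list of primitive and visceral endoderm 8 of 18 genes entered and 2 rose, Gata6 to 3.75 FPKM at day 4, against 0.0851 FPKM at day 2 (2.13), and Gata4 to 3.07 FPKM, against 0.444 FPKM (1.50). Of the 8 genes 7 had positive differences, with a median of 0.22, but Dab2 and Col4a2 differed by only 0.001 each. Sorted ME held 10.2 FPKM of Gata4 and 4.22 FPKM of Gata6. The summed level of the list was 179 FPKM at day 4, against 156 FPKM at day 2, and Afp and Ttr were listed at 0 at both times. Of 9 neural markers that entered, of 15, Tubb3 and Pax6 fell by 1.72 and 1.46 and none rose, with a median of -0.24. Their sum was 97.9 FPKM at day 4, against 130 FPKM at day 2, and Neurog1, Neurog2 and Hes5 were listed at 0 at day 4. Of 9 trophoblast markers that entered, of 11, Krt19 rose and Krt7 fell, with a median of 0.28. Their list summed to 1021 FPKM at day 4, against 733 FPKM at day 2. Most of the day 4 sum was of the keratin genes Krt8, Krt18 and Krt19, at 459, 335 and 209 FPKM. The factors Cdx2, Tfap2c and Gata3 were at 1.81, 7.80 and 0.764 FPKM at day 4, against 0.942, 4.13 and 1.05 FPKM at day 2. Elf5 was at 0.102 FPKM at day 4 and listed at 0 at day 2.

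Of 10 fibroblast markers that entered, of 12, Col1a2, Fbln2 and S100a4 rose and Acta2 fell to 8.97 FPKM at day 4, against 57.1 FPKM at day 2 (-2.54). Of the 10 genes 8 had positive and 2 negative differences, with a median of 0.66. The sum of that list was 182 FPKM at day 4, against 296 FPKM at day 2, lower although most members were higher, with Tagln at 142 FPKM at day 4, against 225 FPKM at day 2. Lum was listed at 0 at day 4. Of 6 germ cell markers that entered, of 8, the helicase gene Ddx4 fell by 1.96. The part that such cells may have in the differences was not tested. The 6 Zscan4 genes, which mark a rare state of ES cells like the early cleavage embryo, were listed at 0 at day 4 and between 1.78 and 4.04 FPKM at day 2. They are near-identical copies whose reads could be split among them, and they were also listed at 0 in ME.

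The genes picked by the size of their change alone, not by list, included some streak factors. Msgn1, Mixl1, Mesp1 and Lhx1 were among the largest rises, and T among those of at least 10 FPKM in both columns. Other large rises, such as Snora41, Nolc1 and Rpph1, were not of streak factors. The ranking uses the same day 4 minus day 2 differences as the lists, so it is not a separate finding. Cyp26a1, whose enzyme breaks down retinoic acid, was at 1.76, 3.13, 112 and 92.3 FPKM at days 0, 2, 4 and 6 and at 139 FPKM in ME (difference 4.78). Gpc3, a cell-surface proteoglycan gene, was at 92.5 FPKM at day 4, against 13.4 FPKM at day 2 (2.69). Among the falls, the ES cell gene Dppa5a was at 22.2 FPKM at day 4, against 245 FPKM at day 2 (-3.40). Syce1, a gene of the meiotic synaptonemal complex, was at 2.84 FPKM at day 4, against 42.0 FPKM at day 2 (-3.48). Nefm, a neurofilament gene, was at 27.4 FPKM at day 4, against 93.5 FPKM at day 2 (-1.73). Mkrn1, a ubiquitin ligase gene, was at 32.6 FPKM at day 4, against 119 FPKM at day 2 (-1.84), and at 27.2 FPKM at day 6.

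Part of that choice consists of entries whose values are hard to use. Of the 15 genes with the largest rise 5 were listed at 0 at day 2, 5 overlap another entry and 3 span under 300 bases. Of the 15 with the largest fall 7 were listed at 0 at day 4, 9 overlap another entry and 3 are short. Snora41, a small nucleolar RNA inside another gene, was at 2821 FPKM at day 4 and listed at 0 at day 2. The ribosomal protein gene Rpl34 was at 2051 FPKM at day 4, against 17.7 FPKM at day 2, and at 1515, 696 and 12.7 FPKM at day 0, day 6 and in ME. Gbp2b, an interferon-induced gene, was at 0.117 FPKM at day 4, against 42.4 FPKM at day 2, with 67.5 FPKM at day 6. H2afx was at 34.5 FPKM at day 4, against 128 FPKM at day 2, with 180 FPKM at day 0 and 117 FPKM at day 6.

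Of the genes named above, Zmynd8, Sox2, Sox17, Evx1, Axin2, Notum, Tcf7l1, Fgf15, Fgfr1, Msx1, Bmp4, Cdh2, Cdh11, Epcam, Gm15051, Tdh, Fbxo15, Pou5f1, Dnmt3b, Dnmt3l, Mki67, Peg3, Igf2, Mirg, Gata6, Col4a2, Afp, Ttr, Gata3, Tagln, Gpc3, Nefm, Snora41, Rpl34 and H2afx overlap another listed entry. The sources do not say if counting respected strand, so reads of such partners cannot be told apart. With entries of under 300 bases, at 0 in either column or overlapping another left out, 7747 remained, of which 224 were higher at day 4 and 348 lower.

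Comparisons that share no library with this one show where the genes stood elsewhere. Their columns do count towards the filter, however, so the shares below are partly built in. A gene low at days 0 and 2 that is high at day 4 enters only if another column also reaches 1 FPKM. Cer1, at 5.90 FPKM at day 4, 0.525 FPKM at day 6 and 0.426 FPKM in ME, was kept out in this way. Of the 392 rises 193 (49.2%) were at least 1 log2 unit higher in ME than at day 0, beside 9.71% of all genes. At least 1 unit higher at day 6 than at day 0 were 190 (48.5%), beside 12.4% of all genes. Of the 609 falls 281 (46.1%) were lower in ME than at day 0, beside 10.0% of all genes, and 252 (41.4%) were lower at day 6 than at day 0, beside 6.29%. Against the direction, 57 of the rises (14.5%) were lower in ME than at day 0, beside 10.0% of all genes. Of the falls 55 (9.03%) were higher, beside 9.71%. At day 2 against day 0, 69 of the rises were lower and 48 higher, and 118 of the falls were higher and 83 lower. Over all 12511 genes 622 were higher and 543 lower. That last comparison shares the day 2 column with the rises and falls.

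Differences along the genome and on the Y chromosome touch the matter of lines. Over 7084 genes of at least 5 FPKM the median difference was -0.09. On chromosome 1 it was 0.18 over 396 genes and on chromosome 11 it was 0.14 over 612 genes, while on chromosome 19 it was -0.25 over 234 genes. Mixl1 and Fn1 lie on chromosome 1 and Lhx1 on chromosome 11, with differences of 5.06, 2.67 and 4.92. Of the Y-linked genes, Eif2s3y was at 2.26 FPKM at day 4, against 25.7 FPKM at day 2, and Ddx3y at 1.62 FPKM, against 6.84 FPKM. Uty was at 1.72 FPKM at day 4, against 1.78 FPKM at day 2. Whether the lines differ in their chromosomes was not tested.

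**Figure D5:**
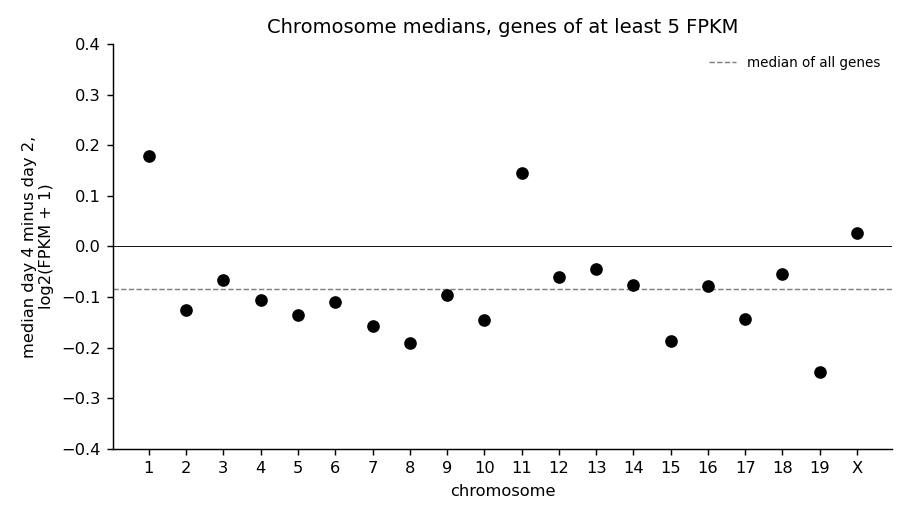
Median day 4 minus day 2 difference in log2(FPKM + 1) for chromosomes 1 to 19 and X, over genes of at least 5 FPKM on the mean of both columns, with a dashed line at the median of all 7084 genes. Of the chromosomes drawn, 1 and 11 lie highest, at 0.18 and 0.14, and 19 lowest, at -0.25, while the Y chromosome, with 1 such gene, is not drawn.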

How the data were processed

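RNA-seq libraries of mouse ES cells in LIF withdrawal were stranded poly(A) libraries, per the labels' protocols. No file header gives the unit of the deposited values, which their range and their low steps show to be FPKM. Per the submitters' processing notes, the build was mm9, and TopHat2 2.0.11 and Bowtie 1.0.0 are listed among the tools with no step assigned. Which program computed FPKM is not given in the sources used. The authors deposited single libraries for day 4, ME, NPC and NSC, and means for days 0, 2 and 6. Of the day 4 values 6.30% carry 7 digits, against 41.9% of the day 2 values.

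From the 39067 entries 11 were dropped because their symbol occurs again, and 11621 are unnamed assembled loci (XLOC), of which 400 entered. Starts were moved by 1 base to count from 1, because end minus start equals the length in RefSeq (GRCm38.p6) for 9143 genes, against 548 with 1 more. Differences were taken as log2(FPKM + 1) in Python 3.11.15 with pandas 2.3.3, with no test, and the scripts were tested on simulated data. Depth came from the steps between low FPKM values, and counting error could not be given. With 1 library at day 4 no spread between cultures is known.

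The members and lists were chosen with earlier results of these data known. Named genes were drawn from the markers T, Mixl1 and Eomes and the 15 largest rises and falls among genes with a symbol. Further sources were the 10 largest each way among genes of at least 10 FPKM in both columns, the highest genes at day 4, and in each list the members with the largest difference. Not all of these are named. Ndufs5, Mir703 and Ccnb1ip1 are among those left out, as are most of the highest genes at day 4. Other list members are named to describe a pathway. The gene families in the closing section, and the alternative that leaves out short, overlapping and zero entries, were chosen after their values were seen. Alternatives changed the pseudocount, the filter, the scaling, the call and the entries used.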

Additional observations from a re-analysis of the deposited data

How the results depend on the processing

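The counts moved with the settings. Of the single genes followed, none with a difference of at least 1 log2 unit as reported changed sign under any setting. That was fixed in advance, since a pseudocount, a filter or the size of the call cannot change a sign. The scalings shifted differences by far less than 1 log2 unit. The median over all genes moved from -0.07 to 0.003 when scaled to the same upper quartile, so the sign of differences near 0 depends on the scaling. As reported, 392 genes were higher at day 4 and 609 lower. With a pseudocount of 0.1 they were 740 and 1041. With a filter of 5 FPKM on the mean of both columns they were 196 and 273, and the list counts were 5 rises for the Wnt pathway, 2 falls for naive factors, 3 for primed genes and 0 for cleavage-stage genes. Called at 2 log2 units they were 87 and 93, with 4 rises for the Wnt pathway and 2 for the cadherin list, and 1 fall for naive factors, 0 for primed genes and 2 for cleavage-stage genes. Without short, overlapping or zero entries they were 224 and 348, with 3 rises in the cadherin list and 0 falls of cleavage-stage genes. The 6 Zscan4 genes were listed at 0 at day 4 and under 5 FPKM at day 2, so this setting and the 5 FPKM filter removed them all. Those counts of 0 are thus fixed by the filters. Both filters removed members of other lists too, so their counts are over fewer genes. Scaling to the same upper quartile gave 461 and 541, and centring on the median gave 452 and 527.

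Of 347 single genes 242 moved by less than 0.5 log2 units with the pseudocount of 0.1, and 347 did when centred. Centring takes the median of -0.07 off every gene, so the count of 347 was fixed in advance. No library was left out in turn, since the day 2 libraries stand in the table as a mean. No paired analysis was possible because the comparison has 1 library at day 4, a mean at day 2 and no test.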

Other observations

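Gene families looked at after their values were seen add to the picture of the day 4 library. Of 33 Hist1 entries that entered, which encode histones of the main cluster, 16 were at least 1 log2 unit higher at day 4 and 1 was lower, with a median of 0.93. Transcripts of these genes mostly lack a poly(A) tail, and the libraries were poly(A)-selected. Of 17 small nucleolar RNA entries 9 were higher and 4 were lower. Beside both families, 3.13% of all genes that entered were higher and 4.87% were lower. Whether the selection of RNA differed between the libraries was not tested.

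On chromosome 4, between positions 145054113 and 147989589 (mm9), lie 38 entries that entered. Many are zinc finger genes of near-identical sequence, and others, such as Mfn2 and Mtor, are not. Of the 38 entries 9 were lower at day 4 and 2 were higher, beside 4.87% and 3.13% of all genes. Rex2 was at 0.838 FPKM at day 4, against 7.84 FPKM at day 2 (-2.27), with 13.3 FPKM at day 0 and 0.505 FPKM in ME. Zfp534 was at 1.67 FPKM at day 4, against 15.7 FPKM at day 2 (-2.65), and Gm13242 at 1.71 FPKM, against 28.9 FPKM (-3.46). Reads shared among such copies could be split between them, so the single values are uncertain. Fv1, a gene against retroviruses in the same region, was at 7.56 FPKM at day 4, against 1.17 FPKM at day 2 (1.98).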
